A study of Homo sapiens with 2 samples.

Results

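Short internal exons were examined in a nucleosome map of ARPE-19, a standard human line derived from the pigmented epithelium behind the retina. An internal coding exon was a member if it was 20 to 79 bp long, lay wholly in the coding sequence of a MANE Select transcript (the single reference transcript per gene agreed between annotation projects) of GENCODE 44, had introns of 1000 bp or more on both sides and lay on chromosomes 1 to 22. Exons of genes with collagen symbols, 292 exons of 33 genes, were left out. The rule left 10494 exons of 5186 genes, 7.02% of the 149478 internal coding exons on these chromosomes. The rule itself uses no measured value, but it was set with earlier results of these data known. The labels list 2 samples, batches 1 and 2 of the same line under normal culture in interphase, with no treated or control arm. Chromatin was digested with micrococcal nuclease for 5 min at 37 °C and DNA of 150 bp was recovered from an agarose gel. The authors' single list gives 2558490 distinct positions on these chromosomes, each 1 bp wide, without height, score or sample name, so the batches could not be compared and the read depth is unknown. Whether a position is the centre of a nucleosome is not given in the sources used here, and densities and offsets below are those of the listed positions.

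A nucleosome wraps roughly a fragment of the size recovered from the gel, so an exon of nucleosome length can be covered by one while a short exon must share it with intron. Micrococcal nuclease cuts the linker DNA between nucleosomes more readily than the wrapped DNA, and it cuts A- and T-rich DNA more readily than G- and C-rich DNA. The acceptor, or 3' splice site, is the intron end before the exon and is preceded by a tract rich in C and T that the splicing machinery binds. The donor, or 5' splice site, is the start of the intron after the exon. Microexons, the shortest of the short exons, are often included in neurons by dedicated splicing regulators.

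The exons had a median length of 64 bp (quartiles 52 and 72 bp), and 2221 of them were under 50 bp. Their length was a multiple of 3, which keeps the reading frame when an exon is skipped, in 39.9%, against 38.7% of 42036 internal coding exons of 100 to 300 bp chosen by the same rule, which served as the comparison. An AG before the exon was found in 99.8% and a GT after it in 99.1%, as in 99.9% and 99.1% of the comparison exons. The median GC content of the exon bases was 43.6%, but only 37.4% in the 147 bp centred on the exon, below the 40.8% of the introns 300 to 500 bp away. In the comparison exons the order was the other way, with 46.3% in the 147 bp and 41.3% in the introns. The 100 bp before the short exons had a median GC content of 33%, and the 100 bp after them 36%. C or T made up a median of 81.2% of the bases from 5 to 20 bp before a short exon and 75% before a comparison exon.

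The shortest exons that carried several positions or a position near the middle are shown to let the sequence be seen around them. Each line gives 147 bp of hg38 centred on the exon, read 5' to 3' on the strand of the gene, with the exon in capitals and the intron in lower case.
PARVB (chr22:44140060-44140206, plus strand): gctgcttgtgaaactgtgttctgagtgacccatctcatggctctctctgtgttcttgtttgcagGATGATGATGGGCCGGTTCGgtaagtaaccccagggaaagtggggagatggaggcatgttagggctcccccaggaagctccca
EIF4G3 (chr1:20982325-20982471, minus strand): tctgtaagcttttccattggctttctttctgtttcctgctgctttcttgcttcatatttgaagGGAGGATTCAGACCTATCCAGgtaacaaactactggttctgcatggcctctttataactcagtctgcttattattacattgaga
PHYHD1 (chr9:128937694-128937840, plus strand): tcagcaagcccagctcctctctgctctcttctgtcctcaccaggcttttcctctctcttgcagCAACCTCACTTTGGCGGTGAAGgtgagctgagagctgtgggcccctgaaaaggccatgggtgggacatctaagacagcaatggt
ARRB1 (chr11:75271640-75271786, minus strand): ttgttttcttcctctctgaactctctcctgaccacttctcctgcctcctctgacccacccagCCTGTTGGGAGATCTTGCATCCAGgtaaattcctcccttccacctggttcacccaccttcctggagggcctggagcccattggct
BSPRY (chr9:113362308-113362454, plus strand): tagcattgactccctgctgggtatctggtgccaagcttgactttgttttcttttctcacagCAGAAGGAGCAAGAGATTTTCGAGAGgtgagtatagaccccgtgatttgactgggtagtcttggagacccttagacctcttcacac
GARNL3 (chr9:127325009-127325155, plus strand): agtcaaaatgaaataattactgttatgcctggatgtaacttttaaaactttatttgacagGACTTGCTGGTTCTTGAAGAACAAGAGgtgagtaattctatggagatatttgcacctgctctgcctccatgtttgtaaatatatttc
PROM1 (chr4:16035675-16035821, minus strand): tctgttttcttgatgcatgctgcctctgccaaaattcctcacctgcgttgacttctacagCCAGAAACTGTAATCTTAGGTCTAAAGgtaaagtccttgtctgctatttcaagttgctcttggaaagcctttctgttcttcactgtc
DYSF (chr2:71602717-71602863, plus strand): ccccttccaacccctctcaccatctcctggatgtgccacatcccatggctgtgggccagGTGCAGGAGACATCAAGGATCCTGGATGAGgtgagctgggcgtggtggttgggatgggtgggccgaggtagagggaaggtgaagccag
The capitals fill only 20 to 30 of the 147 bp. C or T made up 50% (DYSF) to 93.8% (BSPRY and PHYHD1) of the bases from 5 to 20 bp before these 8 exons. PARVB encodes parvin beta, an adaptor of integrin adhesions, and exon 8 of 13 had 2 positions in its stretch, the closer 28 bp past the middle and so in the intron after the exon. EIF4G3 encodes a scaffold of the translation initiation machinery and is a known microexon gene. Its exon 8 of 37 had 1 position, 8 bp past the middle. In ARRB1, which encodes beta-arrestin 1, the position lay 3 bp past the middle of exon 13 of 16, and in DYSF, the membrane repair gene of muscle, 5 bp before the middle of exon 36 of 56 (an offset of -5 bp). PROM1 encodes prominin 1, a protein of photoreceptor membranes. Its exon 4 of 28 had 2 positions, the closer at -23 bp, in the intron before the exon. PHYHD1 had a position at -6 bp, BSPRY had 2 with the closer at 12 bp, and GARNL3 had 1 at 10 bp. GC content of the stretches ran from 34% in GARNL3 to 61.9% in DYSF. These exons were picked for their positions and shown shortest first, so they are examples only. They are not typical in length, since 983 of the 1196 short exons with a position in the window were 50 to 79 bp long. Nor do they show how common such exons are.

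A position within 73 bp of the middle was found at 1196 of the 10494 short exons, or 11.4% (95% Wilson interval 10.8 to 12%, counting error only). The background over all internal coding exons of 20 to 300 bp under the same rule was 17.5%, and it was 12.7% for windows of the same length in the introns 400 bp from the short exons. Among the comparison exons the share was 19.4% (19.1 to 19.8%). Of the short exons 1101 had 1 position, 93 had 2 and 2 had 3, and 9298 had none. The exons with 3 were exon 7 of VSTM4 (62 bp, chromosome 10, 49046983 to 49047044, minus strand) and exon 8 of CRHR2, a receptor for corticotropin-releasing hormone peptides (73 bp, chromosome 7, 30660573 to 30660645, minus strand). If a position marks the centre of a nucleosome, which is not given in the sources used here, positions in the same 147 bp are overlapping placements. A position within 10 bp of the middle was found at 183 short exons, 1.74% (1.51 to 2.01%), against a background of 3.94% and 4.57% of the comparison exons. The share changed little at the upper length limit, with 15.3% of the 366 exons of 79 bp and 14.6% of the 323 exons of 80 bp.

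Per base, the 147 bp around short exons, which include flanking intron, were slightly poorer in positions than the introns further away. These 147 bp held 1293 positions, or 0.838 per kb. The introns 300 to 500 bp beyond both splice sites held 3904, or 0.925 per kb. The log2 ratio was -0.16 ± 0.31 (SD, n = 22 chromosomes), with 16 of them below 0 (two-sided sign-flip permutation test over chromosomes, p = 0.0263, adjusted 0.0461 over 14 tests). The call was lost under 5 alternatives, among them merging positions closer than 100 bp (-0.12, permutation p = 0.0593, adjusted 0.0922) and leaving out chromosomes 9 and 15 (-0.15, adjusted permutation p = 0.0661). Comparison exons stood at 1.45 per kb and their introns at 0.967, a log2 ratio of 0.53 ± 0.25. The difference between the sets was -0.68 ± 0.43, lower for the short exons on 20 of 22 chromosomes (permutation p = 1e-05, the smallest that the draws can give, adjusted 3.5e-05). Counting exon bases alone, short exons held 606 positions, 0.949 per kb, a log2 ratio to the introns of 0.023 ± 0.43 (permutation p = 0.809, adjusted 0.809), while comparison exons held 1.44 per kb. That difference was -0.49 ± 0.50, lower on 19 of 22 chromosomes (permutation p = 0.00018, adjusted 0.00042). Chromosomes are not biological replicates, so these tests describe how evenly a difference ran through 1 list and not how it would vary between cultures.

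Set against base composition, the same windows were slightly richer than their introns. A GC expectation gave each base the density found across chromosomes 1 to 22 in sequence of the same GC content, in bins of 2% taken from the 200 bp around the base. The 147 bp held 1.08 times and the reference introns 0.952 times the number expected. The log2 ratio of these was 0.18 ± 0.29, above 0 on 16 of 22 chromosomes (permutation p = 0.00937, adjusted 0.0262), so its sign was opposite to that of the ratio per base. On exon bases it was 0.36 ± 0.44, above 0 on 19 of 22 (permutation p = 0.00108, adjusted 0.00607). The gap to the comparison exons, which held 1.22 times the expectation in their window, was -0.11 ± 0.31 and did not pass the test (permutation p = 0.106, adjusted 0.165). On exon bases short exons stood at 1.23 and comparison exons at 1.19 times the expectation, a log2 difference of 0.11 ± 0.42 (permutation p = 0.221, adjusted 0.265). Whether GC content alone accounts for the lower density per base was not tested.

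**Figure D1:**
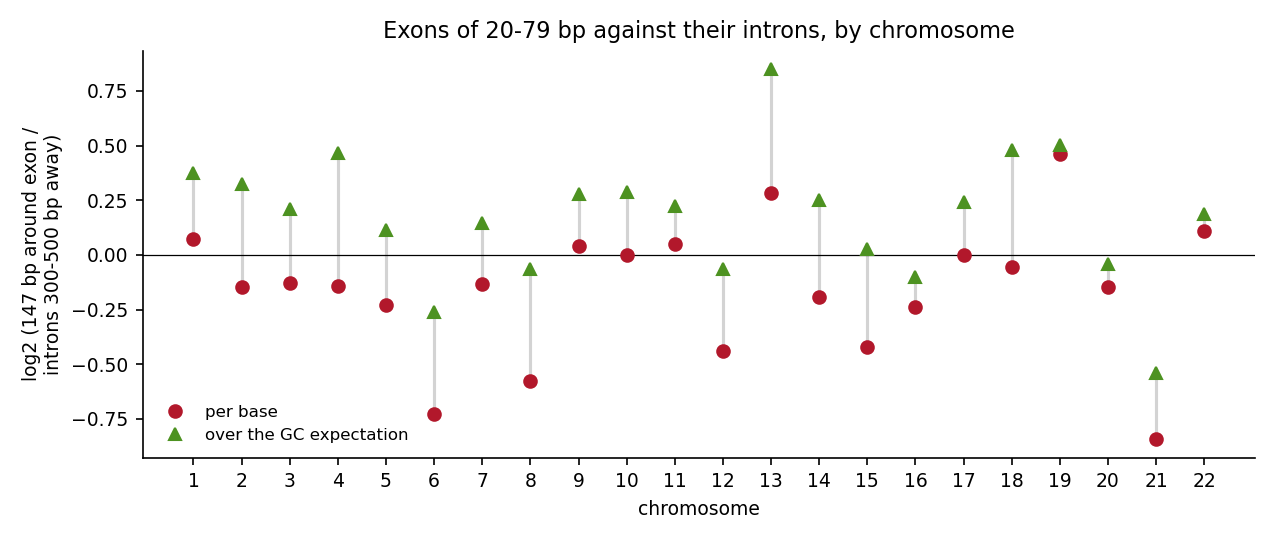
Log2 ratio of the density in the 147 bp around exons of 20-79 bp to that in their introns 300-500 bp away, for each of 22 chromosomes (x axis), per base (circles) and over the GC expectation (triangles). A grey line joins both values of a chromosome: 16 circles lie below 0 and 16 triangles above 0, and chromosome 21, with 10 positions in its windows, is lowest per base at -0.84.

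On single chromosomes the ratio per base ran from -0.84 on chromosome 21 to 0.46 on chromosome 19. Chromosome 21 had 134 short exons and 10 positions in their windows, the fewest of all. Chromosome 6, with 532 exons and 42 positions, was next at -0.73. Chromosome 9 had the densest windows at 1.41 per kb, but its reference introns were also the densest, at 1.37 per kb, and its log2 ratio was 0.043. With the GC expectation the lowest value, -0.54, and the highest, 0.85, were those of chromosomes 21 and 13. The plot of ratios by chromosome shows that the GC expectation moved every chromosome upward, by the least on chromosome 19.

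Positions at short exons were not centred on the exon. Relative to the exon middle, density was highest from 20 to 39 bp past it, at 1.21 per kb (255 positions), and lowest from -80 to -61 bp, at 0.505 per kb (106 positions). Comparison exons peaked from -20 to -1 bp at 2.14 per kb. The exons under 50 bp alone were densest outside the window, from -180 to -161 bp, at 1.15 per kb (51 positions). The part of the window after the middle held 763 positions, 0.996 per kb, and the part before it 519, 0.677 per kb. The log2 ratio of these parts was 0.61 ± 0.42 and above 0 on all 22 chromosomes, and in comparison exons it was -0.023 ± 0.12. Exons of 80 to 99 bp, which belong to neither set, had it as well, at 0.355 ± 0.347, above 0 on 19 chromosomes and below on 2. Among the short exons it was 0.547 ± 0.52 at 60 to 79 bp and 0.848 ± 0.847 at 40 to 59 bp. At 20 to 39 bp it was 0.286 ± 1.08, above 0 on 11 chromosomes and below on 6. These parts were set apart after the profile had been seen and carry no test. Their ratios are per base and not corrected for GC content. At short exons the GC expectation was higher after the middle, with 0.783 per kb from 20 to 39 bp and 0.747 from -40 to -21 bp. Of the 1196 short exons with a position in the window, the closest one lay past the middle in 58.4% (95% Wilson interval 55.5 to 61.1%), with a median offset of 12 bp. In the comparison exons this share was 49% (47.9 to 50.1%) with a median offset of 0 bp.

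**Figure D2:**
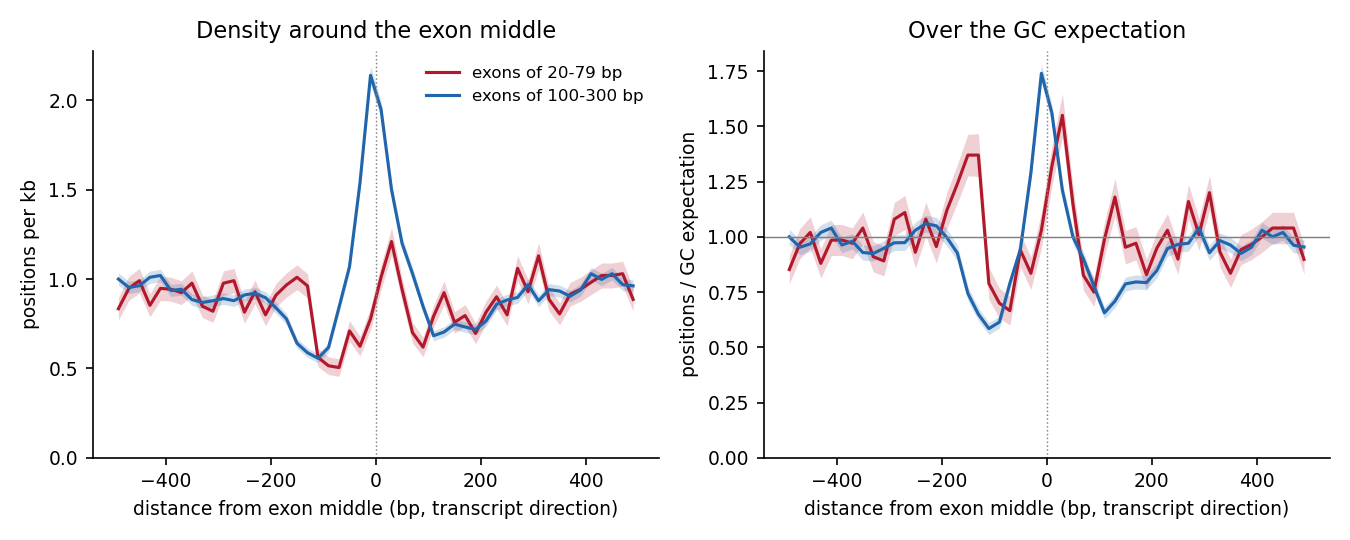
Positions per kb (left) and positions over the GC expectation (right) in 20-bp bins against the distance from the exon middle in transcript direction, for exons of 20-79 bp and of 100-300 bp. Bands show counting error (the bin's value divided by the square root of its count). The short exons reach 1.21 per kb at 20 to 39 bp past the middle, whereas the longer exons reach 2.14 per kb at -20 to -1 bp.

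Measured from the acceptor, the short exons as a set had their maximum in the same bin as longer exons, but those under 50 bp did not. Density at short exons was highest from 40 to 59 bp after the first exon base, at 1.31 per kb (275 positions) and 1.70 times the GC expectation. The comparison exons peaked in the same bin, at 2.12 per kb and 1.81 times the expectation. In short exons this bin holds the end of the exon or the intron behind it, and measured from the donor the last 20 bp of the exon held 239 positions, 1.14 per kb, with 1.02 per kb in the 20 bp from 0 to 19 bp. A bin in the intron, 260 to 279 bp past the donor, was as dense with 240 positions. Over the GC expectation the last 20 bp of the exon were highest, at 1.47, and the bin in the intron stood at 1.23. In the comparison exons the donor profile peaked at -80 to -61 bp, at 2.06 per kb. The 2221 exons under 50 bp were densest before the acceptor instead, at -120 to -101 bp, with 52 positions, 1.17 per kb and 1.72 times the expectation, whereas the 8273 exons of 50 to 79 bp peaked from 40 to 59 bp at 1.38 per kb. By length, the bin from 40 to 59 bp held 1.39 per kb at exons of 60 to 79 bp (178 positions), 1.30 per kb at exons of 40 to 59 bp (81 positions) and 0.795 per kb at exons of 20 to 39 bp (16 positions). The last of these rests on few positions, and for those exons the whole bin is intron. The bin was chosen from the profile and is given without a test.

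As a set, short exons were poor in positions on the acceptor side. The 100 bp before the exon held 618 positions, 0.589 per kb, a log2 ratio to the introns 300 to 500 bp away of -0.72 ± 0.48, and only 1 of 22 chromosomes was above 0 (permutation p = 1e-05, adjusted 3.5e-05). Corrected for GC content, the ratio was -0.31 ± 0.43, below 0 on 17 of 22 (permutation p = 0.0013, adjusted 0.00607). By length, the corrected ratio was -0.388 ± 0.533 at exons of 60 to 79 bp and -0.205 ± 0.453 at 40 to 59 bp. At exons of 20 to 39 bp it was 0.00217 ± 1.19. With this spread, whether the shortest class had a deficit on that scale cannot be told. Per base the ratio of that class was -0.553 ± 1.27. The length classes were not tested. The 100 bp after the exon held 848 positions, 0.808 per kb, a log2 ratio of -0.17 ± 0.35 (permutation p = 0.0308, adjusted 0.0479). With 1 exon per gene it did not pass (-0.17, adjusted permutation p = 0.231). It was 0.093 ± 0.29 with the GC expectation (permutation p = 0.138, adjusted 0.193). The sides differed: the acceptor side was poorer than the donor side by a log2 ratio of -0.55 ± 0.50, and did so on 20 of 22 chromosomes (permutation p = 1e-05, adjusted 3.5e-05). The value was -0.40 ± 0.50 after the GC correction, on 17 of 22 (permutation p = 0.00022, adjusted 0.00308). This asymmetry therefore kept its direction and passed the test on both scales. Low density before the exon was also found at the comparison exons, which held 0.606 per kb before and 0.759 per kb after the exon, or 0.667 and 0.763 times their GC expectation. Over the GC expectation the short exons, at 0.802 before and 0.994 after, had higher values than these. The difference between the sets on either side was not tested.

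Over all short exons together, the low density before the exon had a sharp outer edge. Counted from the first exon base, it stood at 1.02 per kb in the bin of -120 to -101 bp. The next bin inward had 0.753 per kb, and the minimum of 0.424 followed at -80 to -61 bp. From there it rose through 0.538, 0.572 and 0.658 per kb to 0.672 per kb in the first 20 bp of the exon. The GC expectation was nearly flat across these bins, at 0.708, 0.703 and 0.723 per kb. Over the expectation the minimum was 0.587 and the bins outside it stood above 1, with 1.44 and 1.33 in the pair of bins from -140 to -101 bp, the nearer first. The comparison exons had their lowest acceptor density in the same bin, at 0.501 per kb, while -120 to -101 bp stood at 1.08 times their expectation. Among the short exons, those of 50 to 79 bp were lowest at -80 to -61 bp, at 0.381 per kb (63 positions). Those under 50 bp were lowest at -20 to -1 bp instead, at 0.405 per kb (18 positions). Beyond the donor, short exons had their lowest density, 0.605 per kb, from 40 to 59 bp. From 80 to 99 bp it stood at 0.934 per kb, and in the bin after that at 0.791 per kb. The rise from 80 to 99 bp after the donor occurred at the comparison exons too, at 0.880 per kb.

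**Figure D3:**
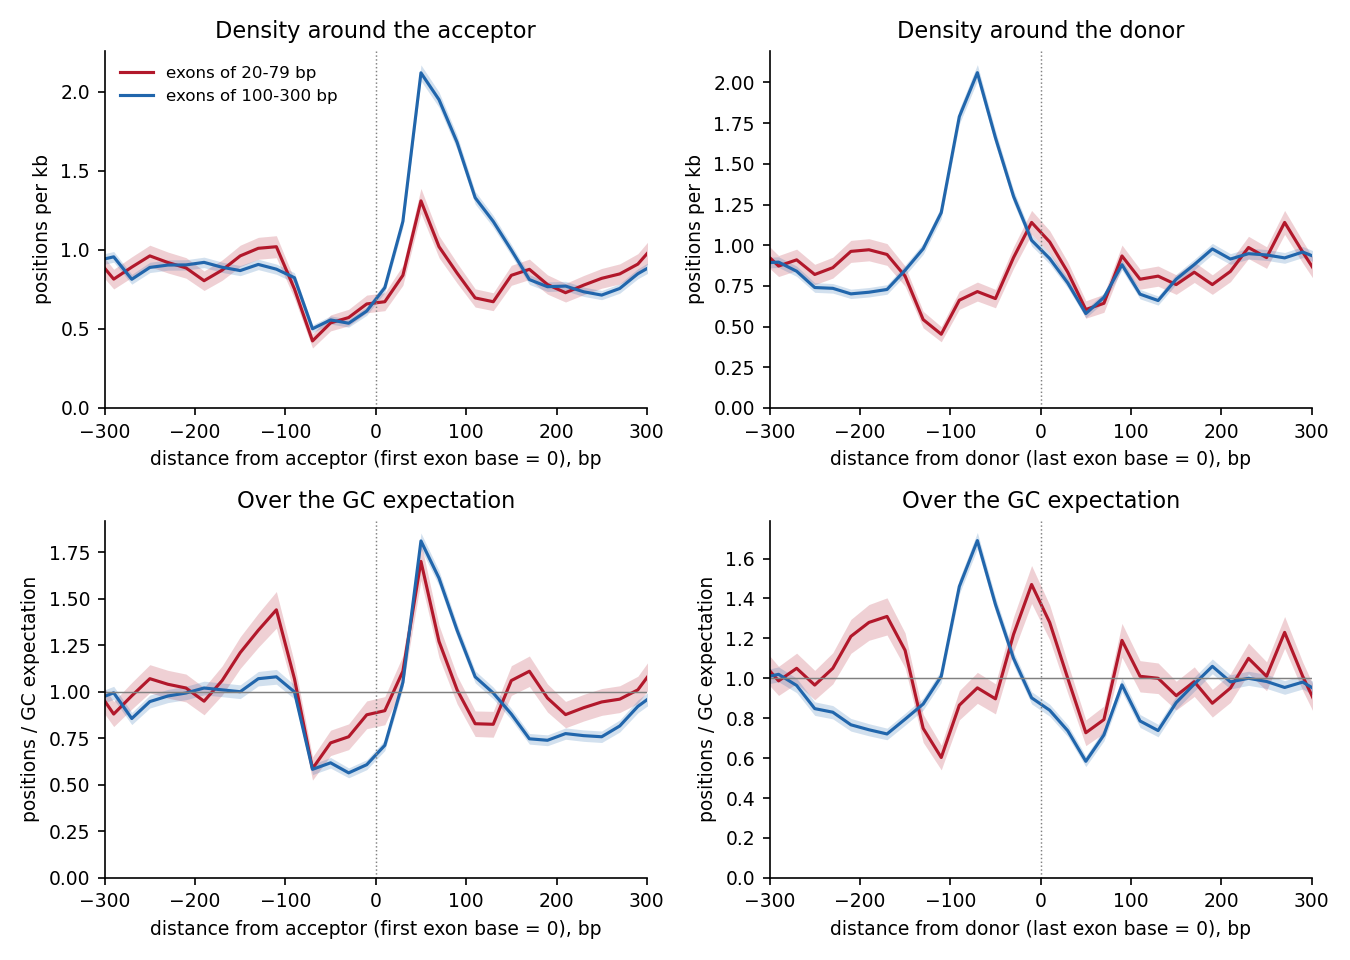
Positions per kb (top) and over the GC expectation (bottom) in 20-bp bins against the distance from the acceptor (left, first exon base at 0) and the donor (right, last exon base at 0), for exons of 20-79 bp and of 100-300 bp. Bands show counting error (the bin's value divided by the square root of its count). Both sets are lowest per kb at -80 to -61 bp and highest at 40 to 59 bp around the acceptor.

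The sequence from 80 to 160 bp on either side of the exon middle held 1303 positions, 0.766 per kb, a log2 ratio to the introns of -0.27 ± 0.27 (permutation p = 0.00012, adjusted 0.000336), with 18 of 22 chromosomes below 0. Divided by the GC expectation it stood at 0.088 ± 0.17, above 0 on 15 of 22 (permutation p = 0.0239, adjusted 0.0479), and 0.071 when the expectation was learnt on introns alone (adjusted permutation p = 0.107). The comparison exons, of which only the longer ones reach into this window, had 0.675 per kb there and 0.693 times the expectation. Neighbouring positions were also examined for the 1196 short exons with a position in the window. The next position more than 100 bp downstream lay 150 to 220 bp away, about one nucleosome repeat, in 15.3% (95% Wilson interval 13.4 to 17.5%), and the next one upstream in 14.7% (12.8 to 16.8%). For comparison exons the shares were 11.4% (10.7 to 12.1%) and 11.5% (10.8 to 12.2%). The difference in these shares was not tested. No such share over all positions or over the introns is given, and the shares were not corrected for the density of the flanks.

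Density over the exon grew with its length. The 147 bp held 0.703 per kb at the 1006 exons of 20 to 39 bp, 0.718 at the 3106 of 40 to 59 bp and 0.918 at the 6382 of 60 to 79 bp. It went on to 1.16 at 80 to 99 bp, 1.32 from 100 to under 120 bp and 1.56 from 150 to under 180 bp, and was 1.50 at 180 to 300 bp. The reference introns stayed between 0.908 and 0.983 per kb in all 8 classes. Over the GC expectation, exons of 20 to 39 bp stood at 1.02, those of 40 to 59 bp at 0.991 and those of 60 to 79 bp at 1.12, against 1.28 from 100 to under 120 bp and 1.09 at 180 to 300 bp. GC content of the 147 bp moved with length as well, from 37.7% at 20 to 39 bp to 40.4% at 60 to 79 bp and 50.3% at 180 to 300 bp. On exon bases alone the step was steeper, with 0.622 per kb (20 positions) at 20 to 39 bp, 0.644 (102 positions) at 40 to 59 bp and 1.08 (484 positions) at 60 to 79 bp.

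**Figure D4:**
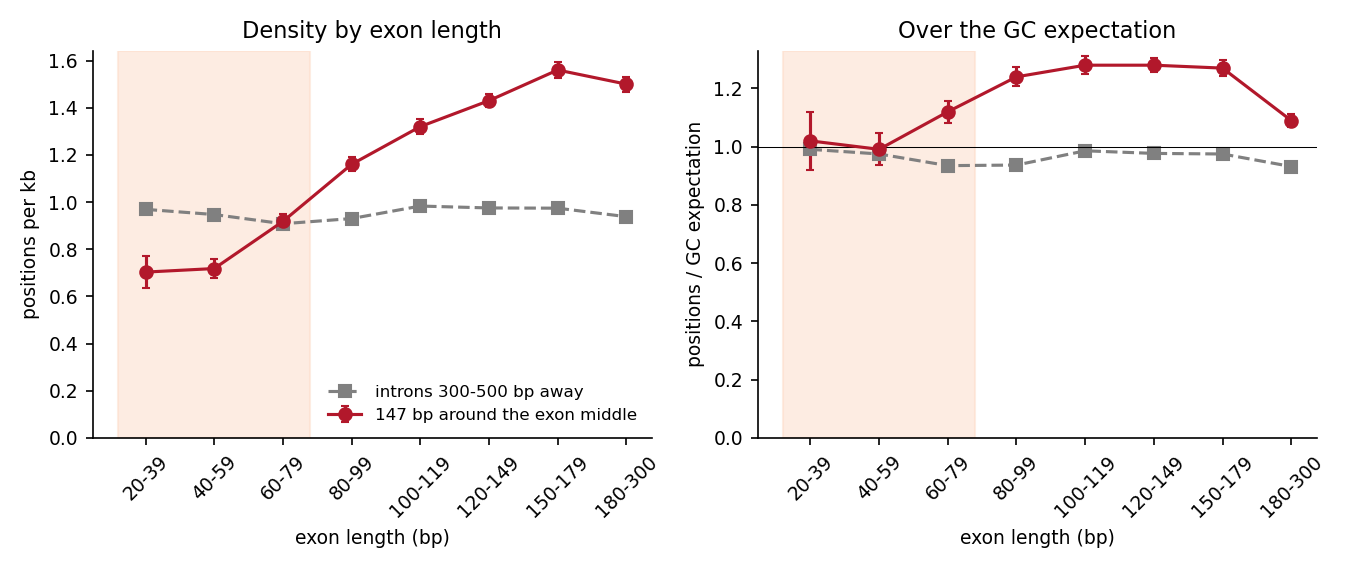
Positions per kb (left) and over the GC expectation (right) in the 147 bp around the exon middle (circles, error bars are counting error) and in the introns 300-500 bp away (squares), for 8 classes of exon length. Shading marks exons of 20-79 bp, where the window holds 0.703 to 0.918 positions per kb against 1.16 at 80-99 bp.

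Among the short exons, those of 20 to 49 bp had fewer positions than those of 50 to 79 bp. Their windows held 223 positions, 0.683 per kb, against introns at 0.941 per kb, and the windows of the longer ones 1070, 0.880 per kb, against 0.921 per kb. The log2 ratios to the introns differed by -0.42 ± 0.71, lower for the shorter class on 17 of 22 chromosomes (permutation p = 0.00751, adjusted 0.015). Corrected for GC content, the difference was -0.19 ± 0.71, lower on 12 of 22 (permutation p = 0.227, adjusted 0.265). With 1 exon per gene, per base, it was -0.34 (adjusted permutation p = 0.0723). The SD exceeds the difference on both scales, and the shorter class averaged few positions per chromosome.

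Of the traits by which the short exons were split, GC content gave the largest difference per base. The quartile with the lowest GC content, 18.4 to 32.7% over the 147 bp, had 69 positions at 2971 exons, 0.158 per kb, and a position was found at 2.26% of them. The following quartiles had 0.461, 1.10 and 1.74 per kb, and in the highest, 46.3 to 74.1% GC, 23.2% of exons had a position. The introns of the same exons varied less, from 0.683 to 1.42 per kb. Split at the median, GC-rich exons had a log2 ratio to their introns of 0.23 ± 0.29 and GC-poor ones of -1.21 ± 0.47. The difference of 1.44 ± 0.51 had the same sign on all 22 chromosomes (permutation p = 1e-05, adjusted 3.5e-05). The GC expectation reversed it, to -0.27 ± 0.50, below 0 on 16 of 22 (permutation p = 0.0191, adjusted 0.0446), and to -0.25 with the expectation from introns alone (adjusted permutation p = 0.0708). In the quartiles, counts were 1.07, 1.19, 1.16 and 1.01 times those expected from GC content, from the lowest to the highest.

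**Figure D5:**
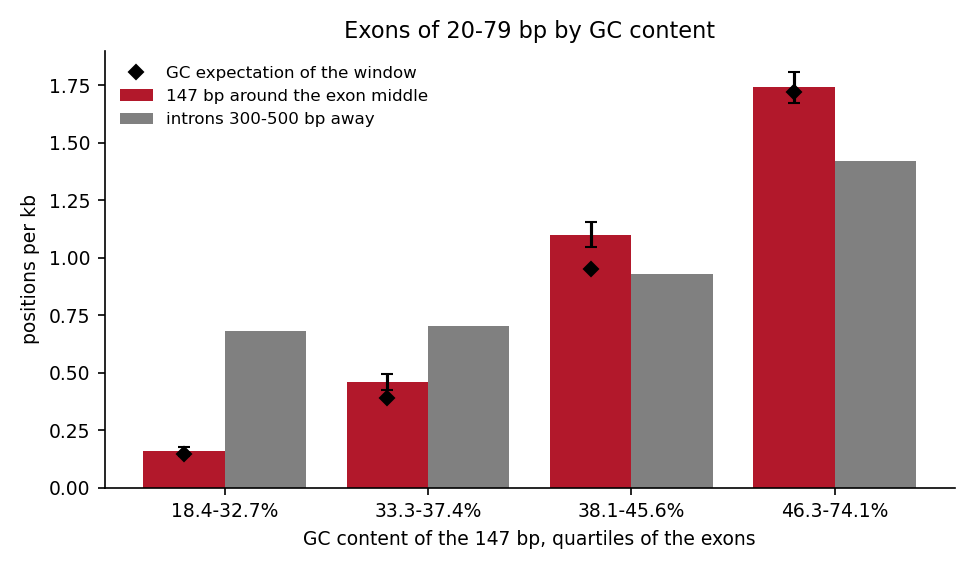
Positions per kb in the 147 bp around exons of 20-79 bp (red bars, error bars are counting error) and in their introns 300-500 bp away (grey bars), for quartiles of the GC content of the 147 bp. Diamonds give the number expected from GC content: the red bars climb from 0.158 to 1.74 per kb and stay within 1.01 to 1.19 times the diamonds.

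Other traits of the exons went with smaller differences. Exons whose length is a multiple of 3 had 0.859 per kb and the others 0.825, and the log2 ratios to the introns differed by 0.092 ± 0.40 (permutation p = 0.315, adjusted 0.367). Exons behind acceptors richer in C and T than the median had 0.869 per kb and the others 0.824, a difference of -0.14 ± 0.54 in the log2 ratio to the introns (permutation p = 0.26, adjusted 0.331) and of -0.21 ± 0.51 with the GC expectation (permutation p = 0.0561, adjusted 0.0981). Exons between longer introns differed from those between shorter ones by 0.047 ± 0.44 (permutation p = 0.623, adjusted 0.671). The 2766 exons up to 20 kb from the start of the transcript had 0.844 per kb, and the 7728 further away 0.836 per kb. Their introns stood at 0.833 and 0.959 per kb, so that the log2 ratios differed by 0.17 ± 0.46 (permutation p = 0.0883, adjusted 0.124). With the GC expectation this difference was 0.32 ± 0.45, above 0 on 16 of 22 chromosomes (permutation p = 0.00415, adjusted 0.0145). There the windows near the start held 1.00 and their introns 0.765 times the expectation, against 1.11 and 1.03 further away.

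Counts at the 10 genes with the most short exons were small. TRDN, which encodes triadin of the muscle calcium release complex, had 21 short exons of 21 to 78 bp with 1 position in their windows, at a GC content of 30.6% where 0.586 were expected. RYR2, the cardiac calcium release channel, had 18 with 1 position against 1.52 expected. ABI3BP, an extracellular matrix protein gene, had 17 with 3 positions, against 1.63 expected. PLB1, which encodes a phospholipase, had 9 positions over 16 short exons, 5 of them with a position, where 4.02 were expected at 52.9% GC. Its introns were dense as well, at 2.18 per kb. NEDD4L, a ubiquitin ligase gene that acts on the epithelial sodium channel, had 2 positions over 14 exons, and CACNA2D3, which encodes a calcium channel subunit, 1 over 13. No position lay in the windows of the 13 short exons of MAP4K3, the 12 of CPNE8, the 12 of DGKI or the 12 of GTF2I, where 0.362, 0.251, 1.58 and 1.03 were expected. GTF2I also had none in its reference introns. With counts this small, no single gene was tested.

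Sums over lists of genes were small, and no list was tested. The 26 genes known for microexons had 61 short exons in 19 of them, with 6 positions against 7.14 expected. A position was found at 9.84% of these exons, near the 11.4% of all short exons. The exon with a position within 10 bp of its middle was the EIF4G3 exon shown above. PTPRF, a receptor phosphatase gene, had 1 position at its 27-bp exon, and MEF2C, a transcription factor gene, 1 at its 48-bp exon. CLASP1, DNM2 and KIF1B also had 1 each. PTPRD, CPEB4 and MEF2A had none at 1, 2 and 1 short exons, where only 0.0261, 0.0995 and 0.076 were expected. The 20 splicing factor genes had 30 short exons in 15 genes, with 2 positions (at MBNL2 and NOVA1) against 4.32 expected. PTBP1, a repressor of neuronal exons, had 1 short exon of 31 bp without a position, where 0.275 were expected. The 6 short exons of RBFOX1 had none, where 0.854 were expected. The 14 giant cytoskeletal and muscle genes had 49 short exons in 11 genes, with 5 positions against 5.91 expected. Of these, MACF1, which links actin and microtubules, had 2 positions at 3 exons, while SYNE1, UTRN and RYR2 had 1 each.

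The short exons of the pigment epithelium list had no position. Its 20 genes had 12 short exons in 5 of them, namely ITGAV and OCA2 with 4 each, MITF with 2, and CTNNB1 and TJP1 with 1 each. ITGAV encodes the integrin subunit with which this epithelium binds shed photoreceptor tips, OCA2 a melanosome channel, MITF the pigment cell transcription factor, CTNNB1 beta-catenin and TJP1 a tight junction protein. None of the 12 exons had a position in its window, where 1.18 were expected from GC content. Most of that expectation, 0.778, came from the 4 exons of OCA2, and the 4 of ITGAV, at 31% GC, added 0.0588. Of all short exons, 11.4% had a position. A count of 0 of 12 allows a share of up to 25%, an upper limit that is not a Wilson bound. The reference introns of the 12 exons held no position either. The remaining 15 genes, among them RPE65 for the retinoid isomerase of the visual cycle, had no exon that met the rule.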

How the data were processed

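Micrococcal nuclease sequencing was done on 2 samples of ARPE-19, which form 1 group. The authors deposited 1 list of called positions (columns of chromosome, start and end, 0-based, all 2634347 rows 1 bp wide), which carries no sample name and no score. Bowtie2, hg38 and GRCh38 are named in the submitters' processing notes. The peak caller and any pooling of batches are not given in the sources used here. The name of the list carries a range of numbers, but whether it is a filter on fragment length is not stated there. All rows fell inside the hg38 sequences they name. The 4 repeated rows were removed. Exons came from GENCODE 44.

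Positions were counted in windows set by strand. Log2 ratios of densities, with 0.5 positions added to each count, were taken per chromosome and tested over 22 chromosomes by sign-flip permutation (two-sided, 100000 draws), with Benjamini-Hochberg adjustment over 14 tests. Depth is unknown, so its precision cannot be given. Intervals are 95% Wilson. Simulated positions were used for a check of the calculation. Its outcome is not given here for any of the 14 tests or for the GC expectation. It is therefore no evidence for the single values reported. Python 3.11.15, numpy 2.4.6, scipy 1.17.1 and pandas 2.3.3 were used. Alternatives were 3 forms of GC expectation, merging of positions, reference introns 500 to 900 bp away, subsets of exons and chromosomes, and pooled counts.

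Named are the 10 genes with the most members, genes of 4 lists (single exons where a position lay within 10 bp of the middle), the 5 exons with the most positions, and the 5 shortest exons with a position within 10 bp of the middle. Up to 8 sequences were shown, shortest exon first. Further genes of the lists, named for their counts, were chosen after their values were seen. The members and lists were chosen with earlier results of these data known.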

Additional observations from a re-analysis of the deposited data

Results flagged for a closer look

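The comparisons used chromosomes 1 to 22, and positions were also present outside them. By the same rule chromosome X had 355 short exons, with 23 positions in their windows, or 0.441 per kb. Their introns had 81 positions, 0.568 per kb. Over the GC expectation learnt on the other chromosomes the windows stood at 0.617 and the introns at 0.664, so both were low. A position was found at 5.92% of these exons (95% Wilson interval 3.90 to 8.87%), against 11.4% on chromosomes 1 to 22. A further 1388 rows of the list lay on 12 other sequences and were not used.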

How the results depend on the processing

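No value for a single batch could be given, no batch could be left out, and read depth and mappability were not analysed here. No paired analysis was possible because the list does not tell the batches apart. The windows chosen from the profiles were not recomputed. Of 154 alternative values with a test, 115 kept direction and side of the threshold, 16 changed sign, 17 no longer passed and 6 passed only then. Pooled counts, which have no test, kept the direction in 14 of 14. The acceptor side and its contrast with the donor side passed in every setting with a test. Reference introns 500 to 900 bp away, exons more than 2000 bp from the start and windows without empty 100-kb stretches changed no call.

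In the order of expectation from the genome, from introns alone and from 150 bp, the exon-centred log2 ratio became 0.177, 0.16 and 0.158, the exon bases 0.362, 0.344 and 0.308, the donor side 0.093, 0.0765 and 0.109, and the flanks of 80 to 160 bp 0.0879, 0.071 and 0.124. In the same order the difference from exons of 100 to 300 bp was -0.111, -0.107 and -0.0138 in the window and 0.114, 0.118 and 0.179 on exon bases. Exons of 20 to 49 against 50 to 79 bp gave -0.192, -0.19 and -0.17, GC-rich against GC-poor exons -0.271, -0.247 and -0.496, and exons near against far from the start 0.315, 0.309 and 0.316. The change of expectation is the only difference there.

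The small deficit per base around the exon did not pass when positions were merged (-0.122), without chromosomes 9 and 15 (-0.151), with introns of 2000 bp or more (-0.109), with 1 exon per gene (-0.159) and with collagen genes kept (-0.141). The donor side did not pass in the first 4 of these settings, at -0.166, -0.154, -0.183 and -0.168. Exons of 20 to 49 against 50 to 79 bp did not pass with introns of 2000 bp or more (-0.476) and 1 exon per gene (-0.342). Longer against shorter introns changed sign without chromosomes 9 and 15 (-0.0231). The cause was not tested. With 50 or 100 bp in place of 73 bp either side, 8.60% or 13.8% of short exons had a position.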
